A study of Mus musculus with 2 samples.

Results

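The miRNAs described here are the cartilage-associated strands miR-140, miR-140*, miR-455 and miR-455*. They were chosen by name, as the array features called mmu-miR-140 or mmu-miR-140* or beginning with mmu-miR-455, which gave 4 of the 696 mouse miRNAs measured. Their levels were compared in 2 tissues of untreated ICR mouse embryos at E13.5, the 3rd mammary gland (the gland, below) and the piece of flank lying between it and the 4th gland (the inter mammary gland region, or the flank). For each region 100 ng of total RNA was hybridized to a single 1-colour Agilent array of mouse miRNAs, and the number of embryos behind each RNA is not given in the sources used here. The comparison was read as a measure of cartilage in the dissected tissue. With 1 array per region there was no replicate check, no test was run, and every error below is technical, the spread over spots of 1 array.

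Cartilage of the embryo forms when mesenchymal cells condense, switch on the transcription factor Sox9 and turn into chondrocytes that secrete collagen. miR-140 is the best known miRNA of chondrocytes. Its hairpin lies inside the gene Wwp2, a ubiquitin ligase gene that Sox9 activates in cartilage. miR-455 is also abundant in chondrocytes, and its hairpin lies inside Col27a1, a gene for a fibrillar collagen of cartilage. Each hairpin is cut into a pair of arms, 5p and 3p, and either arm can be loaded into the silencing complex, where the seed (bases 2 to 8) does most of the target recognition. In the older names used on this array a star marks the arm that was thought to be the minor one. At E13.5 the ribs are being laid down as cartilage in the body wall beneath the mammary line. Whether the dissected pieces reached the rib primordia is not stated in the sources used here, and mRNAs of Sox9 or the collagens are not measured by this array.

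The mature sequences are shown with the seed in capitals, because bases 2 to 8 show whether these strands belong to 1 seed family. By name, 3 of the 4 members matched mouse entries of RefSeq (build GRCm38.p6). The array's names carry no arm, so the arms were assigned from older miRBase nomenclature, in which miR-140* is miR-140-3p, miR-455 is miR-455-3p and miR-455* is miR-455-5p. The first lies at chr8:107551288-107551308, the second at chr4:63256904-63256924 and the third at chr4:63256867-63256888, all on the plus strand.
miR-140*: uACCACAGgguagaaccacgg
miR-455: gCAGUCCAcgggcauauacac
miR-455*: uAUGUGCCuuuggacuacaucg

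The 3 seeds differ from one another. Among 1679 mature mouse names of the same RefSeq table, only miR-497b shares the seed of miR-140* and only miR-5129-3p that of miR-455*. No other name shares the seed of miR-455. Neither miR-497b nor miR-5129-3p is a name on the array. Over their whole length these sequences are far from any other in that table. The closest differs from miR-140* by 8 single-base edits, from miR-455 by 7 and from miR-455* by 7. Within the miR-455 hairpin the arms could form 16 base pairs with each other in a predicted duplex. The sequences of the array's own probes were not analysed here.

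Both arrays gave usable signal at the same share of spots, with 38.1% of 13920 miRNA spots well above background on each. Detection of a probe required over 50% of its spots to be well above background, and a miRNA needed 1 such probe. By this rule 296 miRNAs were detected in the gland, 300 in the flank and 284 in both. All 4 members were among the 284. Spot signals below are background-subtracted intensities on a linear scale. Ratios were formed after dividing each array by the 75th percentile that its jointly detected probes reached (786 for the gland and 719 for the flank). The negative control spots reached at most 17.3 in the gland and 19.2 in the flank.

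The miR-140 and miR-455 strands were detected in both tissues, at levels that differed by less than 1.5-fold. Expressed as gland over flank, the ratio was 1.04 for miR-140, 1.21 for miR-140*, 0.978 for miR-455 and 0.875 for miR-455*. None of the 4 passed 1.5-fold in either direction. The same threshold was passed by 11.3% of the 284 miRNAs detected on both arrays, 2.11% on the higher side in the gland (6 miRNAs) and 9.15% on the lower side (26). This balance depended on the scaling, with 15 higher and 23 lower when no scaling was applied, and 19 and 22 with the percentile over every probe. With 4 members, a count of 0 does not set them apart from these shares. The median log2 ratio was 0.012 over the members and 0.048 over all 284. In bulk RNA of this kind, fewer chondrocytes and less miRNA per chondrocyte cannot be told apart.

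miR-140, the strand most often used as a marker of cartilage, was read by a pair of probes with 10 spots each. The spots of the first probe ran from 76.2 to 104 (median 87.6) in the gland and from 66.1 to 84.2 (median 74.2) in the flank. For the second probe they ran from 77.9 to 118 (median 106) in the gland and from 81.5 to 101 (median 94.7) in the flank. Before scaling the gland was a little brighter on both probes, and the ranges overlapped on both. After scaling, the first probe gave a log2 ratio of 0.13 ± 0.066 (standard error over spots) and the second -0.0016 ± 0.064. The combined log2 ratio of miR-140 was 0.057 ± 0.046. In order of ratio miR-140 stood near the middle of the 284 miRNAs, with 135 above it and 148 below.

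miR-140*, the strand from the other arm of the same hairpin, had the highest ratio of the 4. The first probe gave 73.6 to 86.8 (median 81.1) over 10 spots in the gland and 49.6 to 62.8 (median 55.3) over 9 spots in the flank, where 1 spot marked as an outlier by the software was left out. The second probe gave 198 to 253 (median 223) in the gland and 166 to 183 (median 171) in the flank, with 10 spots each. The gland was the brighter on both probes. After scaling, all 10 gland spots of the first probe and 8 of the 10 of the second exceeded every flank spot. At the 19 positions measured on both arrays the scaled gland spot was the brighter each time. The log2 ratio was 0.40 ± 0.042 for the first probe, 0.24 ± 0.039 for the second and 0.28 ± 0.030 (standard error over spots) for miR-140* as a whole. The difference was larger than the spread over spots but remained below 1.5-fold. Over all 284 miRNAs the median error was 0.037 and the quartiles of the log2 ratio were -0.14 and 0.22. A ratio beyond its error over spots therefore does not set miR-140* apart. How many other miRNAs had spots as separate as these was not counted. A higher ratio was seen for 49 of the 284 miRNAs and a lower one for 234.

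miR-455, the arm written without a star, was close to equal in the tissues. The spots of the first probe ran from 36.5 to 56.0 (median 47.6) in the gland and from 34.8 to 57.8 (median 40.4) in the flank. Those of the second ran from 135 to 182 (median 166) in the gland and from 138 to 168 (median 150) in the flank. The ranges overlapped on both probes. After scaling, the gland spot was the brighter at 5 of 10 positions of the first probe and at 2 of 10 of the second. The log2 ratio of miR-455 was -0.033 ± 0.051, which is within the spread over spots. Of the 284 miRNAs, 182 had a higher ratio and 101 a lower one.

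miR-455*, from the opposite arm of the miR-455 hairpin, was the dimmest member. Its first probe gave 16.4 to 37.0 (median 29.2) in the gland, where only 5 of 10 spots were well above background, and 25.5 to 35.4 (median 29.4) in the flank, where 8 of 10 were. The first probe thus missed the detection rule in the gland, but it was kept in the averages below. Its second probe gave 37.8 to 59.0 (median 49.6) in the gland and 42.5 to 56.5 (median 50.4) in the flank, with all 10 spots well above background in both. The unscaled medians were therefore nearly equal. After scaling, the log2 ratio was -0.19 on each probe, with standard errors over spots of 0.11 and 0.081, and -0.19 ± 0.066 for miR-455* as a whole. A higher ratio was seen for 226 of the 284 miRNAs and a lower one for 57.

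**Figure D1:**
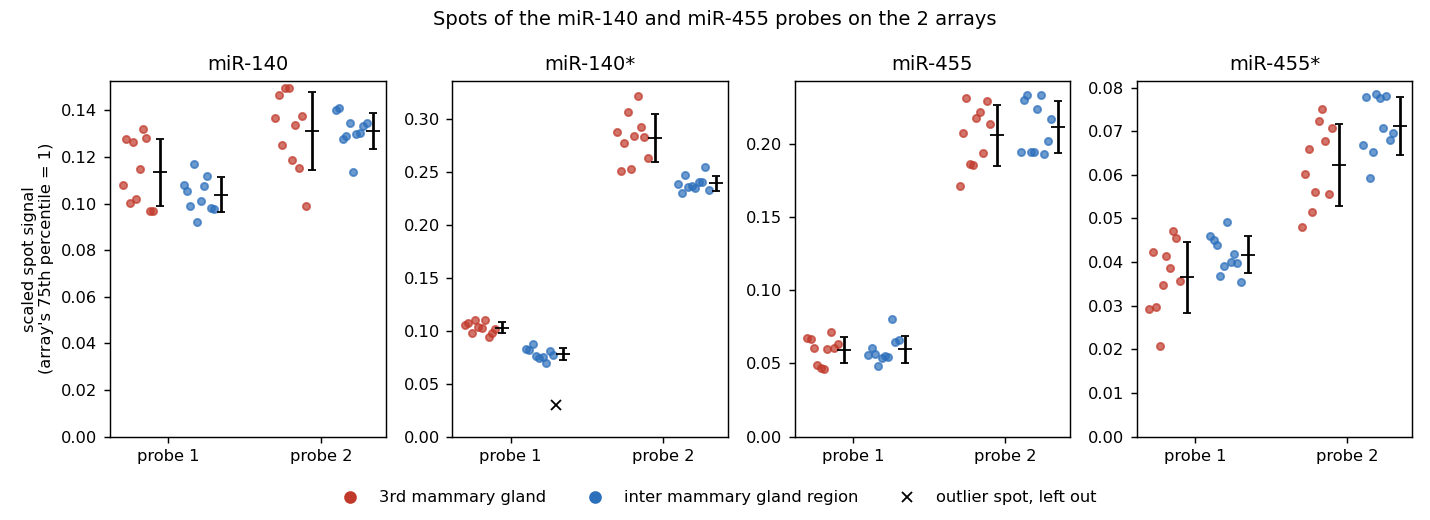
Each point is 1 spot, plotted as its signal divided by the 75th percentile of its array (y axes start at 0 and differ between panels), for the pair of probes of each miRNA in the gland (red) and the flank (blue), with black bars for the mean and SD over the spots used. The points overlap for miR-140, miR-455, miR-455* and the second miR-140* probe, while all 10 gland spots of the first miR-140* probe lie above the flank spots.

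The software's own totals per miRNA were, for the members, the mean signals of the same spots times a constant for each array. Their order was therefore fixed by those means and is no separate check. For miR-140 they were 127 ± 10.6 (the software's error) in the gland and 109 ± 9.33 in the flank, and for miR-140* they were 201 ± 16.6 and 148 ± 12.8. For miR-455 the totals were 138 ± 12.4 and 126 ± 11.5, and for miR-455* 51.4 ± 6.61 and 52.5 ± 6.41. Unscaled, the quotients were 1.16, 1.36, 1.09 and 0.979 in the same order. All members were among the dimmer miRNAs of these arrays, since between 179 and 242 of the 284 miRNAs gave a brighter mean signal. This ranks brightness only, since signals from unlike probes are no measure of relative RNA amount.

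**Figure D2:**
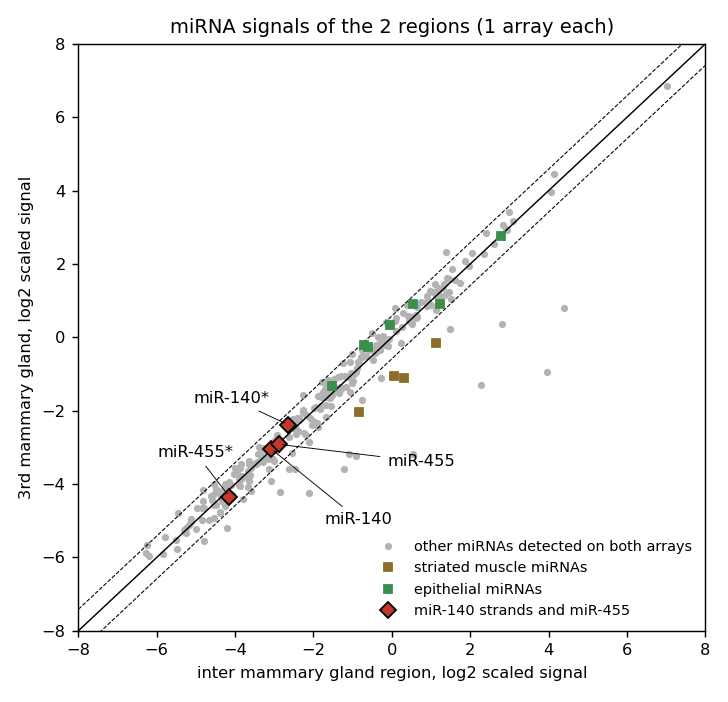
Each point is 1 of the 284 miRNAs detected on both arrays, with the log2 scaled signal of the flank (inter mammary gland region) on the x axis and of the 3rd mammary gland on the y axis. The solid line marks equality and the dashed lines 1.5-fold. The 4 members (diamonds) lie between the dashed lines, while the 4 striated muscle miRNAs (brown squares) lie under them and the epithelial ones (green squares) between them.

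The arms of one hairpin come from one precursor, so their ratios were set side by side. miR-140* minus miR-140 was 0.22 ± 0.055 on the log2 scale (standard error over spots), and miR-455 minus miR-455* was 0.16 ± 0.083. For the 46 pairs of arms on the array with both arms detected in both regions, the absolute difference had a median of 0.16 and ran from 0.0036 to 2.52. It was larger than that of the miR-140 arms in 14 of the 46 pairs and larger than that of the miR-455 arms in 23. The gap between the arms of miR-140 was therefore of a size that many other hairpins on these arrays also showed. The pair of probes reading 1 miRNA differed too, by a median of 0.076 over the 224 miRNAs with exactly 2 probes detected on both arrays, by 0.13 for miR-140, by 0.16 for miR-140* and by 0.030 for miR-455. miR-455* was not among the 224, because its first probe was not detected in the gland.

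The scaling of the arrays moved all 4 ratios together. The median log2 ratio of all miRNAs was 0.048 with the scaling used here, 0.18 with none and 0.21 when the percentile was taken over every probe. The sign of miR-455 followed it, from -0.033 here to 0.097 with no scaling. Relative to the median of all miRNAs, which no division of a whole array can move, the log2 ratio was 0.0086 for miR-140, 0.23 for miR-140*, -0.081 for miR-455 and -0.24 for miR-455*. Over the 12 settings that gave a value, this relative ratio stayed between 0.17 and 0.25 for miR-140* and between -0.24 and -0.13 for miR-455*. It ran from -0.017 to 0.060 for miR-140 and from -0.081 to 0.00035 for miR-455, so neither of these had a settled sign. Most of the 12 settings could not change a member's relative ratio, except through the median. Only quantile normalization, another background correction, keeping outlier spots and using the brightest probe could do so. In all 12 settings 0 of the 4 members passed 1.5-fold.

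**Figure D3:**
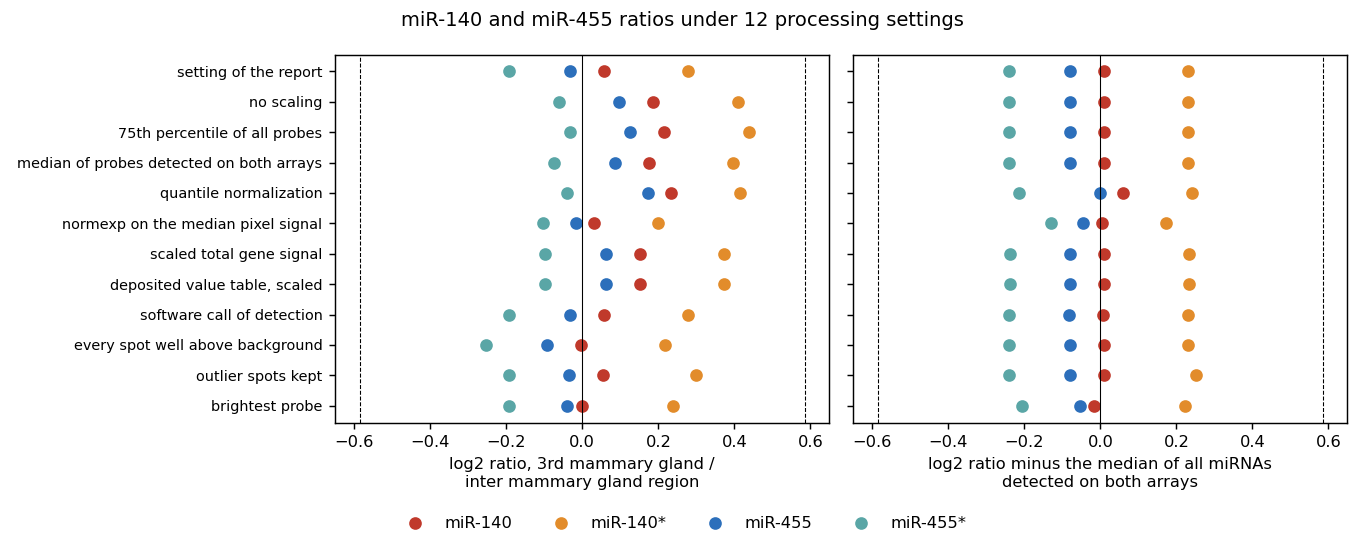
The log2 ratio (gland over flank) of each member under 12 processing settings is shown on the left, and the same minus the median of all miRNAs detected on both arrays on the right, with dashed lines at 1.5-fold. On the left the 4 points shift together with the scaling. On the right miR-140* stays between 0.17 and 0.25, miR-455* between -0.24 and -0.13, and no point reaches a dashed line. Settings that only divide a whole array by another number cannot move the points on the right.

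Other miRNAs with reported roles in cartilage, bone or their matrix were described from a list of 23 names, of which 22 are on the array and 16 were detected in both regions. None of the 16 passed 1.5-fold, beside 11.3% of all 284 miRNAs, and a count of 0 in 16 does not set the list apart from that share. Their median log2 ratio was 0.078, beside 0.048 for all miRNAs. The highest were both arms of miR-335, a miRNA of the mesenchymal gene Mest, at 0.34 ± 0.023 and 0.33 ± 0.024 (5p and 3p). miR-199a-3p and miR-214, both miRNAs of mesenchyme, stood at 0.32 ± 0.032 and 0.26 ± 0.042. The lowest was miR-204, a miRNA that targets the bone regulator Runx2, at -0.45 ± 0.038. Next lowest were miR-138 at -0.22 ± 0.088 and miR-101b at -0.11 ± 0.028. miR-675-3p, made from the H19 RNA, stood at 0.17 ± 0.057. miR-145, which targets Sox9, was not detected in either region, and miR-194 was detected in the gland alone. Of the miR-29 miRNAs, which target collagens, miR-29c was detected in both regions at -0.019 ± 0.060, miR-29a in the flank alone and miR-29b in neither. Dividing a whole array by another number would move all of these values and the median alike.

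With the scaling used here, only the striated muscle list had members past 1.5-fold among the lists for other tissues. Of all 284 miRNAs, 11.3% passed this fold and 9.15% did so on the lower side in the gland. The striated muscle miRNAs detected in both regions were lower in the gland, 4 of 4 past 1.5-fold, with miR-1 at 2.17-fold, miR-133a at 2.31-fold, miR-133b at 2.40-fold and miR-206 at 2.69-fold, while miR-133a* was detected in the flank alone. Their median log2 ratio was -1.24, against 0.012 for the miR-140 and miR-455 strands. The 7 epithelial miRNAs had a median of 0.34, with miR-200a at 0.51, miR-200b at 0.37, miR-205 at -0.021 and miR-203 at -0.31, and 0 of 7 passed 1.5-fold. Blood and vessel miRNAs (7 detected in both, median 0.046) and neural ones (2 detected in both, median -0.46) also had 0 past 1.5-fold. In lists this short, a count of 0 does not set them apart from the 11.3% of all miRNAs. These counts of 0 also depend on the scaling, which moves all log2 ratios alike. On the log2 scale 1.5-fold is 0.585, and miR-200a at 0.51, miR-451 at 0.44 and miR-128 at -0.57 lay near enough to pass under another scaling. Of the neural names, miR-124, miR-9, miR-9* and miR-137 were detected in neither region by the rule used here. The authors report high expression of miR-137 in the gland. Its unscaled mean signal here was 22.6 in the gland and 9.73 in the flank, and this difference was not examined further. The part of muscle or epithelium in the ratios of the miR-140 and miR-455 strands was not tested.

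**Figure D4:**
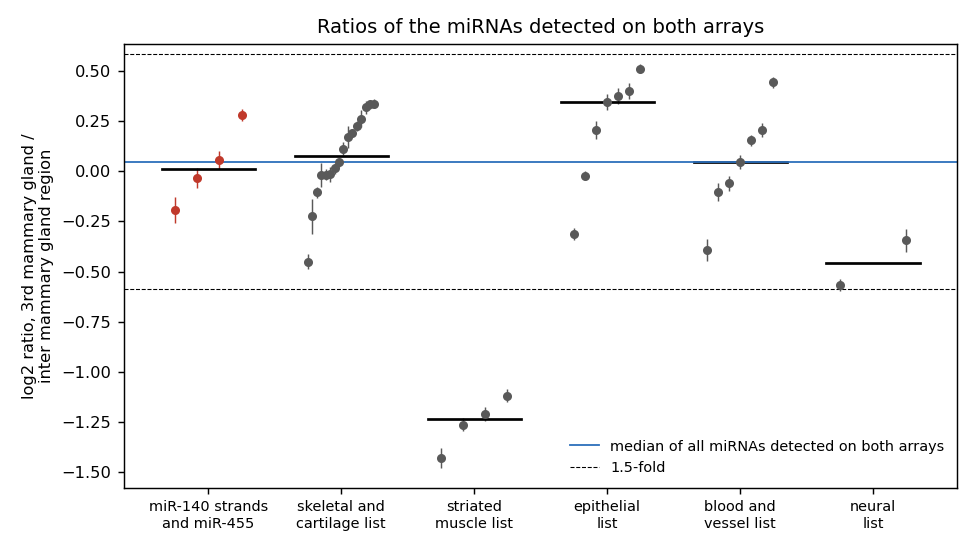
The log2 ratio of each miRNA detected on both arrays is plotted for the 4 members (red) and for 5 lists (grey), with standard errors over spots, black bars at the median of each set, a blue line at the median of all 284 miRNAs and dashed lines at 1.5-fold. The members sit between -0.19 and 0.28 around the blue line, while the 4 muscle miRNAs sit between -1.43 and -1.12.

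With only 2 arrays, the pattern of a miRNA is a single ratio, so likeness was taken as the distance between log2 ratios. The 3 miRNAs nearest to miR-140 were miR-100, miR-329 and miR-409-3p, all at 0.057. Nearest to miR-140* were miR-125a-5p, miR-361 and miR-107, between 0.275 and 0.282. Nearest to miR-455 were miR-669l, miR-542-3p and miR-92a, between -0.029 and -0.027. Nearest to miR-455* were miR-362-5p, miR-15b and miR-487b, between -0.196 and -0.191.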

How the data were processed

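The authors hybridized RNA of each region to 1 Agilent miRNA array and quantified the scans with Feature Extraction 10.7.3.1 (array grid on mm9). The deposited spot intensity is background-subtracted, linear and not normalized between arrays. The deposited value table holds the software's total intensity per miRNA, with a small stand-in where it called none. GeneSpring GX is named for normalization, with no scaling stated.

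From the spot intensities, control and outlier spots were left out (1.67% and 2.51% of miRNA spots in gland and flank), spots were averaged per probe, arrays were divided by the 75th percentile over their jointly detected probes, and probes were averaged per miRNA. Errors were propagated from the standard errors over spots. Precision is limited by having 1 array per region. Members and lists were chosen with earlier results of these data known, and the comparison of arms and of probes was added after the values were seen. Named miRNAs were the members, the 3 nearest in ratio to each, those sharing a seed, and list members past 1.5-fold or defining a tissue. Further list members named in the text were picked after their values were seen. Arms were assigned by name, not by accession. Alternatives covered scaling, background (normexp, offset 50, on the median pixel intensity), signal column, detection, outliers, probe choice, dim miRNAs and the threshold. Python 3.11.15, numpy 2.4.6, pandas 2.3.3, matplotlib 3.10.9, R 4.3.3, limma 3.58.1 and RNAduplex 2.7.2 were used.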

Additional observations from a re-analysis of the deposited data

How the results depend on the processing

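No paired analysis was possible because only 1 array was hybridized per region. No member passed 1.5-fold under any alternative run. The log2 ratios that moved by more than their error over spots are given in the order miR-140, miR-140*, miR-455 and miR-455*. They were 0.19, 0.41, 0.097 and -0.062 with no scaling, 0.22, 0.44, 0.13 and -0.033 with the percentile over every probe, 0.18, 0.40, 0.086 and -0.074 with scaling to the median of jointly detected probes, 0.23, 0.41, 0.17 and -0.040 after quantile normalization, and 0.15, 0.37, 0.061 and -0.098 with scaled totals, from the scanner files or the deposited table alike. When detection needed every spot of a probe, which changes the probes that set the scale, miR-140 gave -0.0045, miR-140* 0.22 and miR-455 -0.094. With the brightest probe miR-140 gave -0.0016 and miR-140* 0.24. After normexp miR-140* gave 0.20 and miR-455* -0.10. With the totals the median log2 ratio of all miRNAs was 0.14. Relative to that median the members stood at 0.011, 0.23, -0.079 and -0.24, close to their values under the scaling used here. For the members the totals are the mean signals times a constant for each array, so this closeness is no separate check. The brightest probe of miR-140 and of miR-140* was the second one, so these values are its ratios alone. For normexp the cause was not tested. With dim miRNAs left out no member remained, because all 4 lie under the median level of the detected miRNAs.

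Over all 284 miRNAs detected on both arrays, 6 were past 1.5-fold on the higher side in the gland and 26 on the lower. Of the same 284, the first count became 15 with no scaling or median scaling and 19 with the percentile over every probe. It was 14 after quantile normalization and for totals, 2 after normexp and 0 at 2-fold. Other settings changed the number of miRNAs, and the first count became 13 of 323 with the software's call and 3 of 142 without dim miRNAs. The second count became 12 of 142 without dim miRNAs, and 16 of the 284 at 2-fold. The dim signal limits miR-455* most, since 5 of 10 spots of its first probe were well above background in the gland.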
